A study of Homo sapiens with 12 samples.

Results

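The SLC25 genes encode the mitochondrial carrier family. They were defined as the rows of the count table whose gene symbol is SLC25A followed by a number, which gave 48 of the 50868 genes in the table. The RNA came from MG63, a human osteosarcoma cell line in long use, in 12 libraries that form 4 groups of 3. In the compound experiment the cells were exposed for 18 hours to 1 µM anticarin-beta or to vehicle. In the siRNA experiment they carried an siRNA specific to CCT4 or the Allstar control siRNA for 2 days after transfection. CCT4 is a subunit of the cytosolic chaperonin, which folds actin and tubulin. Whether replicates are separate cultures is not stated in the labels, and the p-values therefore cover only the spread among these libraries, which may be technical.

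Most SLC25 proteins sit in the inner mitochondrial membrane, which small charged molecules do not cross unaided. Each carrier exchanges or imports particular solutes, such as ADP for ATP, phosphate, citrate, aspartate for glutamate, or a cofactor made in the cytosol. The carriers thereby link cytosolic glycolysis, amino acid and lipid metabolism to respiration in the mitochondrial matrix.

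The libraries held 13393750 to 17492095 counts, so 3 counts, taken as the floor of a library, equal 0.160 to 0.277 CPM. CPM is the usual count scaled to library size, here with the trimmed mean of M values (TMM). Among the markers of bone and mesenchymal cells, COL1A1 (500 to 5240 CPM) and VIM (2070 to 3810 CPM) were abundant in every library, RUNX2 was at 2.03 CPM or more, and SPP1 stayed at or below 0.251 CPM. Of 6 markers of other cells, CD3E had 0 counts, EPCAM and CDH1 did not exceed 0.335 and 0.168 CPM, and KRT8 was at 37.5 to 55.6 CPM. The blood cell marker PTPRC was at 1.26 to 2.13 CPM with anticarin-beta and 0.48 to 1.28 CPM with vehicle, and did not exceed 0.358 CPM in the siRNA experiment. The endothelial marker PECAM1 was at 1.66 to 2.68 CPM with anticarin-beta and 3.94 to 5.03 CPM with vehicle, and at 10.9 to 14.4 CPM in the siRNA experiment. The 6 summed to 46.2 to 55.0 CPM with anticarin-beta and 41.9 to 61.0 CPM with vehicle, and to 54.9 to 61.5 CPM in the libraries labelled CCT4 siRNA and 57.1 to 58.7 CPM with control siRNA, and their part in the results was not tested. In bulk RNA, fewer cells of a type and less RNA per cell cannot be told apart. Transcripts of the mitochondrial genome took 1.16 to 1.36% of counts with anticarin-beta, against 4.74 to 5.10% with vehicle, and 1.23 to 1.25% in the libraries labelled CCT4 siRNA, against 2.08 to 2.30% with control siRNA. Leaving these genes out of the table gave 17 SLC25 members higher and 18 lower with the compound, the same counts as with them.

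CCT4, the gene targeted by the siRNA, was read first. It stood at 201, 199.6 and 216 CPM in the libraries labelled CCT4 siRNA, against 186, 160.2 and 185 CPM with control siRNA, so its log2 fold change was 0.22, with a standard error of 0.09 (adjusted p = 0.129). No decrease of the targeted mRNA was seen, and every direction given for that comparison is that of the labelled libraries. CCT4 shares exon bases with genes on the opposite strand, and whether counting used strand was not given in the sources used here.

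Of the 48 members, 42 passed the filter on low counts. The other 6 were SLC25A2, SLC25A31, SLC25A41, SLC25A47, SLC25A48 and SLC25A52, none of which exceeded 9 counts in a library, and SLC25A31, the ADP/ATP carrier known from testis, had 0 in all of them. SLC25A2 had 3 counts in 1 anticarin-beta library and 0 elsewhere.

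Levels between members were compared in TPM, which are counts over exon length scaled to the same sum in each library. Exon length was the union of all annotated exons of a gene. The ADP/ATP carriers of growing cells led, with SLC25A6 at a mean of 1046 TPM over the 12 libraries and SLC25A5 at 613 TPM. Behind them, too close for an order to be read, lay SLC25A3 (112 TPM), which imports the phosphate used to make ATP, SLC25A39 (109 TPM, glutathione), SLC25A1 (108 TPM, citrate) and SLC25A37 (101 TPM, iron). Their order changed between groups, and SLC25A3 averaged 140 TPM with anticarin-beta, the highest of these 4, and 127 TPM with vehicle, level with SLC25A1 (126 TPM), but 103 TPM in the libraries labelled CCT4 siRNA and 77.4 TPM with control siRNA, where it was the lowest of them. SLC25A4, the ADP/ATP carrier of heart and muscle, was at 13.0 TPM, and SLC25A21 was lowest of those that passed the filter, at 0.881 TPM. The order depends on the lengths used, which were 8896 bases for SLC25A3, 1500 for SLC25A5 and 2164 for SLC25A6. By CPM, SLC25A3 averaged 412 against 335 for SLC25A5 with anticarin-beta, and 319 against 259 with vehicle. In the libraries labelled CCT4 siRNA these means were 251 and 258 CPM, and with control siRNA 170 and 200 CPM.

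**Figure D1:**
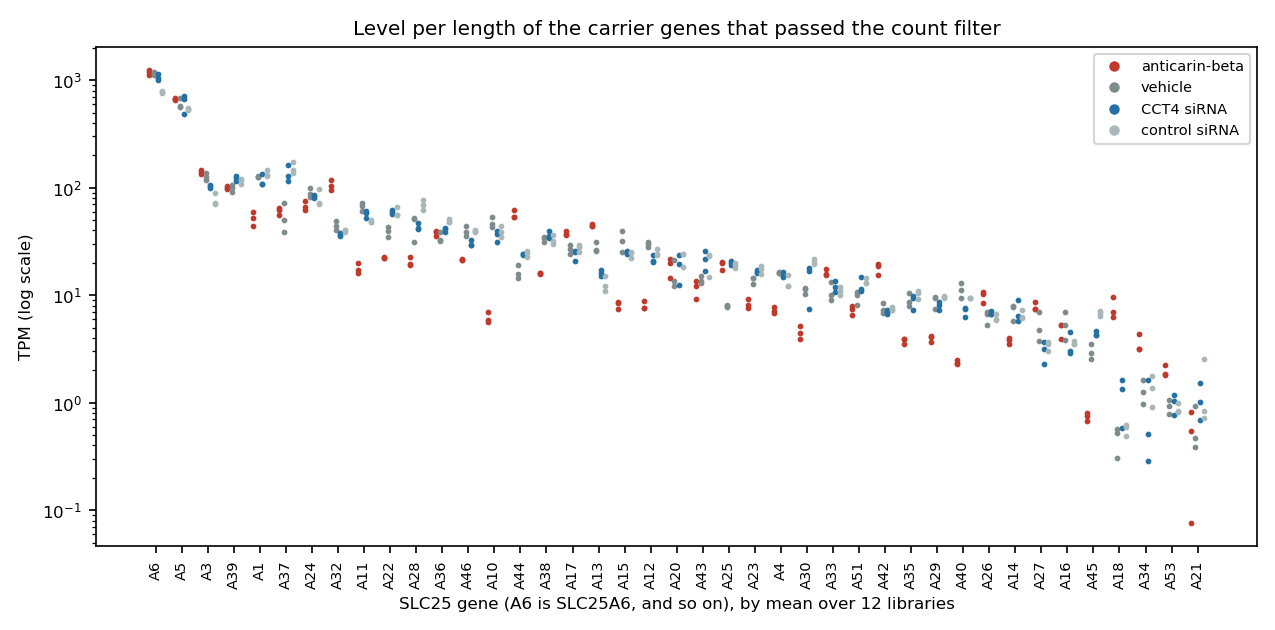
TPM (log scale) of 41 of the 42 SLC25 genes that passed the count filter, ordered by their mean over 12 libraries, with 1 point per library and colours for the 4 groups. SLC25A6 and SLC25A5 stand above all other members in the 12 libraries, and the anticarin-beta points leave the others for genes such as SLC25A10, SLC25A11, SLC25A40 and SLC25A18.

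The summed level of the family overlapped between the compound groups, at 2792 to 2920 TPM with anticarin-beta and 2838 to 3067 TPM with vehicle. It was 2786 to 3016 TPM in the libraries labelled CCT4 siRNA and 2567 to 2614 TPM with control siRNA. The ADP/ATP carriers made up 64.0 to 66.5% of that sum with anticarin-beta and 60.5 to 61.9% with vehicle. In the siRNA experiment they made up 55.2 to 60.7% in the libraries labelled CCT4 siRNA and 50.9 to 52.3% with control siRNA. In both experiments the treated libraries thus lay above their controls in the share taken by these genes. The size of these shares depends on the exon lengths used for TPM.

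With anticarin-beta, 17 members rose and 18 fell, and 7 did not pass the test (edgeR quasi-likelihood test, adjusted p under 0.05). The compound moved most genes, so these counts are read against 34.9% of all 17717 genes tested called higher and 38.0% called lower. The members' shares were 40.5% and 42.9%, near that background. Their median log2 fold change was −0.04, against −0.06 over all genes. Counted by 2-fold changes, 7 members were higher and 10 lower (background 20.9% and 24.8%). The anticarin-beta and vehicle libraries did not overlap for 17 members higher and 18 lower, against 35.8% and 38.8% of all genes. With library totals alone as the scaling, which moved the median of all genes to −0.48 and that of the members to −0.45, 11 members were higher and 21 lower. Under that scaling 4292 of all 17717 genes were higher and 8959 lower. All 18 decreases held under every scaling, tool and left-out library tried.

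**Figure D2:**
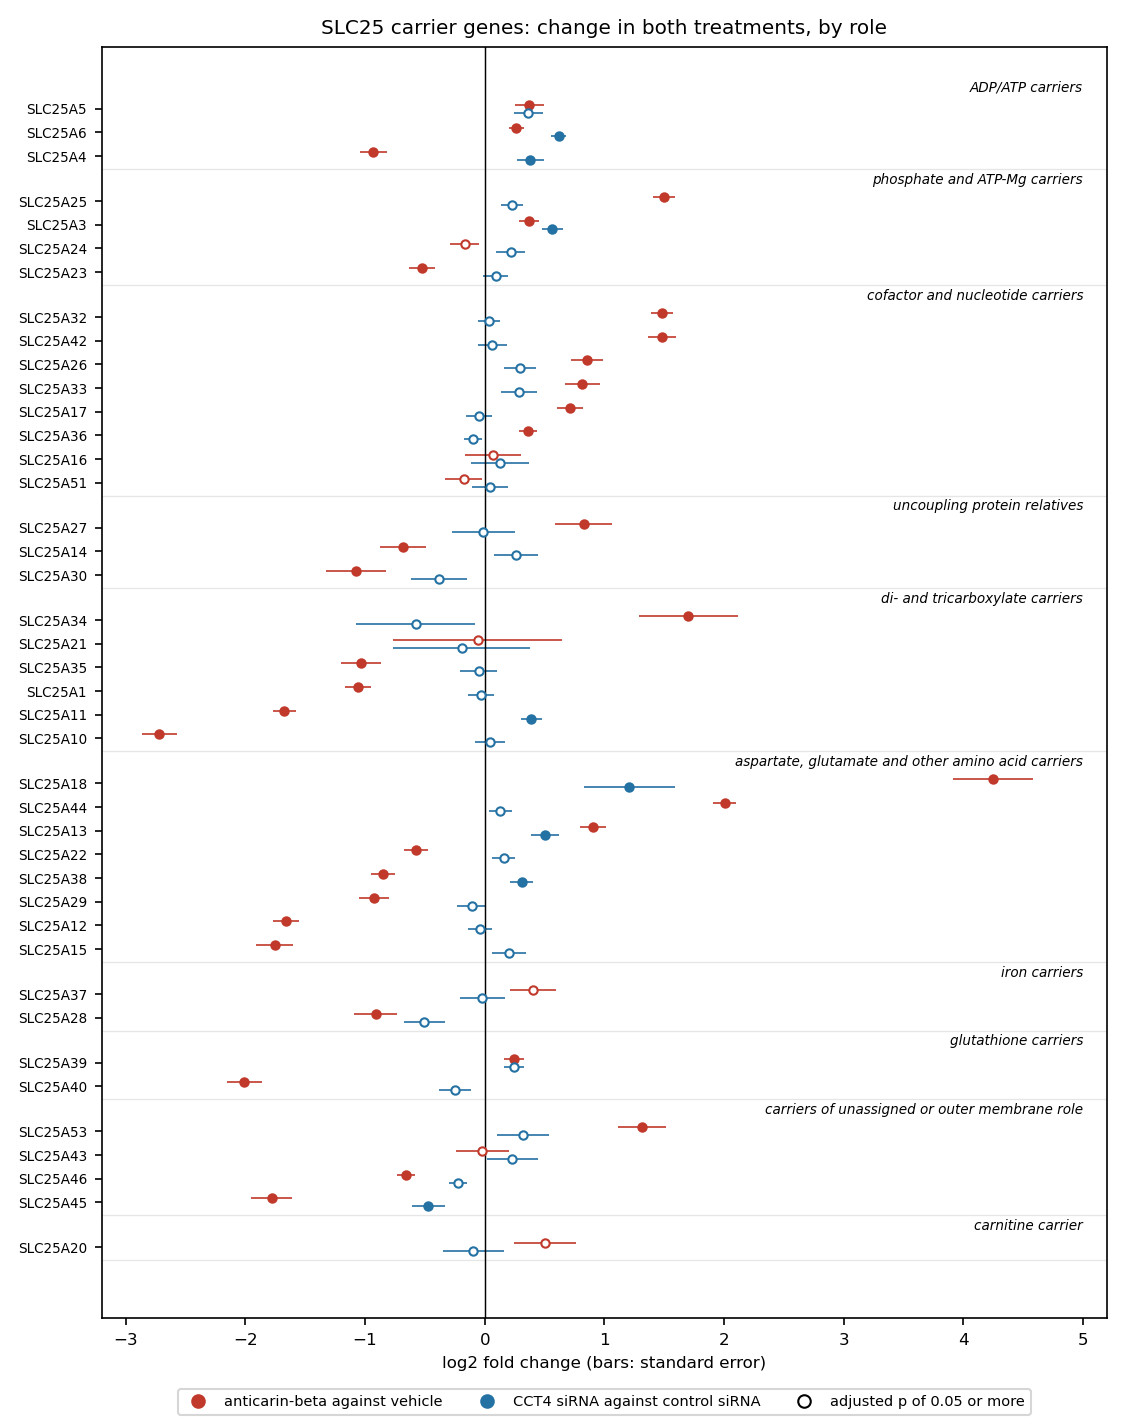
Log2 fold change (bars are standard errors) of 41 of the 42 SLC25 genes that passed the count filter, grouped by what the carriers transport, with anticarin-beta against vehicle in red and CCT4 siRNA against control siRNA in blue, filled where the adjusted p was under 0.05. Red points spread from −2.72 for SLC25A10 to 4.25 for SLC25A18, while blue points lie between −0.58 and 1.21.

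The di- and tricarboxylate carriers, which move citrate, malate, succinate and 2-oxoglutarate across the inner membrane, were mostly lower with the compound. Of the 6 tested, 4 fell (66.7%, against 38.0% of all genes), 1 rose (16.7%, against 34.9%) and SLC25A21 did not pass. SLC25A10, the dicarboxylate carrier (chromosome 17, 81712236 to 81721016, plus strand), read 6.04, 5.08 and 4.94 CPM with anticarin-beta, against 39.1, 35.5 and 31.3 CPM with vehicle. The groups lay far apart, and the 6.59-fold decrease was the steepest of the 42 members tested (log2 fold change −2.72 ± 0.14, adjusted p = 3.24e-09). SLC25A10 shares 1221 of its 2621 exon bases with a gene on its own strand, so its reads may be divided with that gene. SLC25A11, the 2-oxoglutarate and malate carrier of the malate-aspartate shuttle (chromosome 17, 4937130 to 4940251, minus strand), read 17.6, 15.2 and 14.4 CPM with anticarin-beta, against 53.3, 47.5 and 50.2 CPM with vehicle. It was 3.20-fold lower, again without overlap, by 1.68 ± 0.10 on the log2 scale (adjusted p = 6.21e-09). SLC25A1, which exports citrate for lipid synthesis (chromosome 22, 19175575 to 19178830, minus strand), had 40.8, 30.4 and 36.6 CPM with anticarin-beta, against 74.9, 76.7 and 73.1 CPM with vehicle, a log2 fold change of −1.06 ± 0.11 (adjusted p = 2.25e-06). SLC25A35, a relative whose substrate is less settled, had 5.03, 4.99 and 4.60 CPM with anticarin-beta, against 8.63, 11.9 and 9.46 CPM with vehicle (log2 fold change −1.04 ± 0.17, adjusted p = 9.7e-05). Both were lower in every treated library than in any vehicle library. The exception was the sparse SLC25A34, with 36 to 56 counts per anticarin-beta library and 15 to 27 per vehicle library, which was 3.25-fold higher (log2 fold change 1.70 ± 0.41, adjusted p = 0.00243).

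Amino acid carriers went both ways. Of 8 tested, 3 rose (37.5%, against 34.9% of all genes) and 5 fell (62.5%, against 38.0%). The aspartate-glutamate carriers SLC25A12 and SLC25A13 (citrin), which do the same exchange in the malate-aspartate shuttle, moved apart. SLC25A12 (chromosome 2, 171784370 to 171999859, minus strand) read 12.9, 12.9 and 15.4 CPM with anticarin-beta, against 44.8, 45.2 and 40.5 CPM with vehicle, a log2 fold change of −1.66 ± 0.11 (adjusted p = 1.64e-08). SLC25A13 (chromosome 7, 96120220 to 96322147, minus strand) read 55.9, 53.5 and 54.0 CPM with anticarin-beta, against 32.2, 28.5 and 26.5 CPM with vehicle, a log2 fold change of 0.90 ± 0.11 (adjusted p = 7.91e-06). Neither gene's groups overlapped.

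The mitochondrial glutamate carriers split in the same directions from very unequal levels. SLC25A18 (chromosome 22, 17563439 to 17590994, plus strand) rose to 11.0, 9.89 and 15.3 CPM with anticarin-beta, against 0.693, 0.422 and 0.749 CPM with vehicle. That is 131, 107 and 183 counts in anticarin-beta libraries and 13, 7 and 14 in vehicle libraries, a 19.0-fold difference (log2 fold change 4.25 ± 0.33, adjusted p = 1.3e-07) and the steepest rise of the 42. Its more abundant partner SLC25A22 fell to 34.3 to 34.8 CPM with anticarin-beta, against 44.6 to 56.3 CPM with vehicle (log2 fold change −0.58).

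SLC25A44, which carries branched-chain amino acids into mitochondria (chromosome 1, 156193932 to 156212796, plus strand), was at 127, 129 and 150.5 CPM with anticarin-beta, against 38.4, 30.9 and 31.9 CPM with vehicle. It was 4.01-fold higher in treated libraries (log2 fold change 2.01 ± 0.10, adjusted p = 1.54e-09), and every treated value exceeded every vehicle value. SLC25A15, the ornithine carrier of the urea cycle (chromosome 13, 40789412 to 40810111, plus strand), was at 4.53, 5.18 and 5.19 CPM with anticarin-beta, against 20.3, 13.5 and 16.5 CPM with vehicle (log2 fold change −1.75 ± 0.15, adjusted p = 3.69e-07). The vehicle libraries differed among themselves here, but the lowest of them still lay well above the treated ones. SLC25A38, the glycine carrier that feeds heme synthesis (chromosome 3, 39383324 to 39397351, plus strand), was at 14.3, 14.3 and 14.2 CPM with anticarin-beta, against 25.8, 27.6 and 23.8 CPM with vehicle (log2 fold change −0.85 ± 0.10, adjusted p = 6.27e-06). SLC25A29, a carrier of basic amino acids, fell by 0.93 on the log2 scale.

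**Figure D3:**
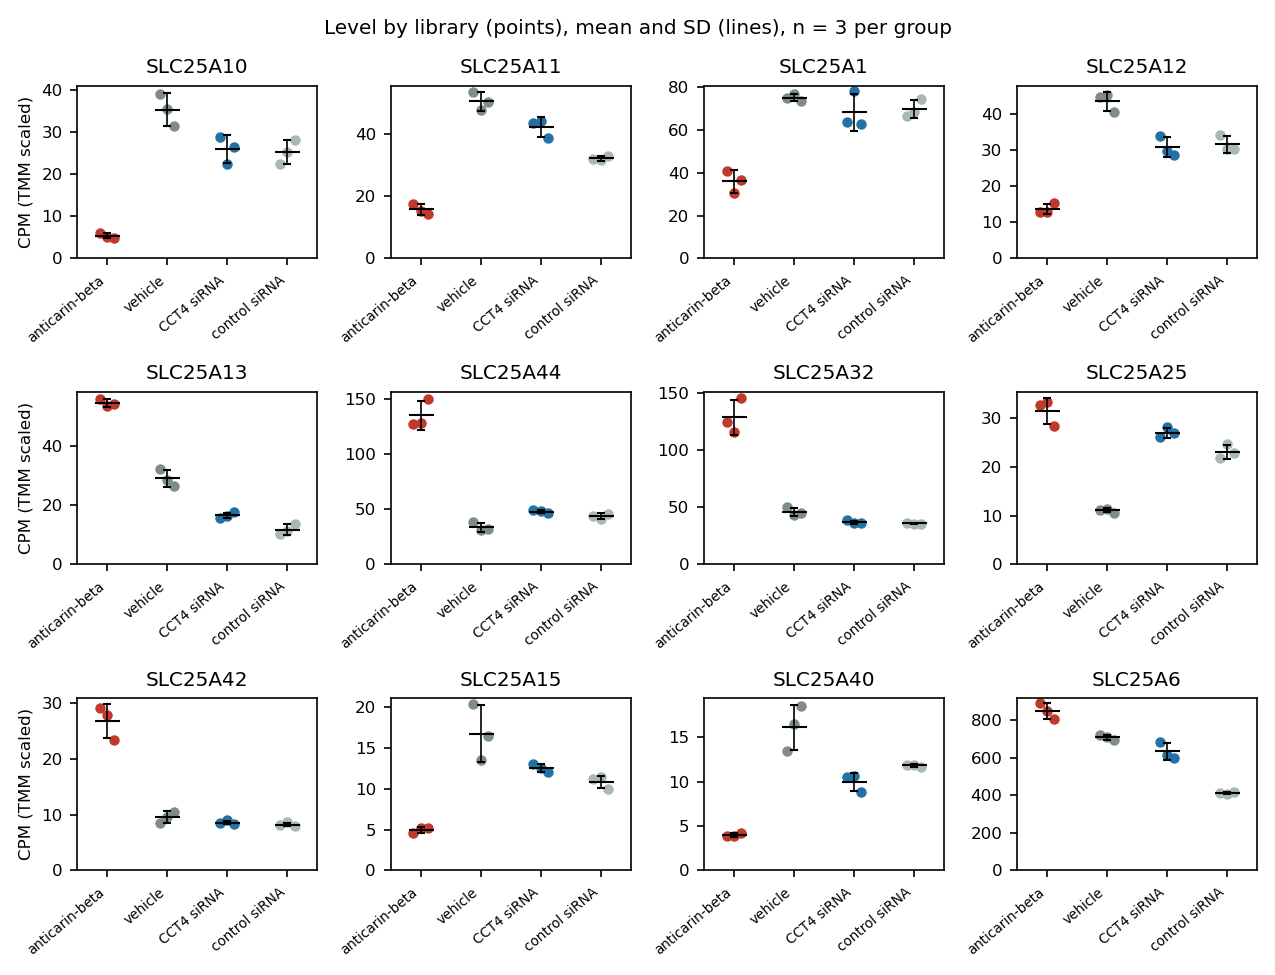
CPM (TMM scaled) of 12 SLC25 genes in each library, as points, with the group mean and SD as lines (n = 3), for anticarin-beta, vehicle, CCT4 siRNA and control siRNA. The anticarin-beta points of SLC25A10 (4.94 to 6.04 CPM) and SLC25A44 (127 to 150.5 CPM) lie apart from all other groups, and SLC25A6 is lowest with control siRNA (406 to 418 CPM).

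Carriers of cofactors and nucleotides were mostly higher with the compound. Of 9 tested, 6 were higher (66.7%, against 34.9% of all genes) and 1 lower (11.1%, against 38.0%). SLC25A32, the folate and flavin carrier, read 125, 115 and 145 CPM with anticarin-beta, against 49.9, 43.4 and 44.5 CPM with vehicle, a 2.80-fold difference (log2 fold change 1.48 ± 0.09, adjusted p = 1.09e-08). SLC25A42, a coenzyme A carrier (chromosome 19, 19063999 to 19112888, plus strand), read 29.1, 28.0 and 23.3 CPM with anticarin-beta, against 8.58, 9.65 and 10.6 CPM with vehicle, a 2.79-fold difference (log2 fold change 1.48 ± 0.12, adjusted p = 1.31e-07). For both, all treated libraries lay above all vehicle libraries. SLC25A32 shares 2547 exon bases with a gene on its own strand, so its reads may be divided with that gene. The smaller increases were in SLC25A26, which imports S-adenosylmethionine (0.86), in the pyrimidine nucleotide carriers SLC25A33 (0.82) and SLC25A36 (0.36), and in the peroxisomal SLC25A17 (0.72), all as log2 fold changes. With library totals alone SLC25A36 turned to −0.05. SLC25A16 (0.07) and the NAD carrier SLC25A51 (−0.18) did not pass.

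The promoters of 3 members that rose contain the cyclic AMP response element TGACGTCA. RefSeq windows on GRCh38.p14, 250 bases before to 50 after each start, were found for 40 of the 48 members, and these letters, which read the same on both strands, occur in 3 of the 40 members (7.5%) and in 2.25% of 27305 genes. SLC25A25, SLC25A33 and SLC25A36 are the 3, all among the 16 windowed members that rose, and 0 of the 15 windowed members that fell hold the letters. The share of all risen or fallen genes that hold them was not computed, and a link to the changes was not tested. SLC25A25 has them in 1 of its 3 start windows. The 250 bases before each start are shown because they carry this match, in plus-strand order at chr9:128098257-128098506, chr1:9539215-9539464 and chr3:140941586-140941835, with the element in capitals, beginning 200, 49 and 117 bases before the start.
SLC25A25: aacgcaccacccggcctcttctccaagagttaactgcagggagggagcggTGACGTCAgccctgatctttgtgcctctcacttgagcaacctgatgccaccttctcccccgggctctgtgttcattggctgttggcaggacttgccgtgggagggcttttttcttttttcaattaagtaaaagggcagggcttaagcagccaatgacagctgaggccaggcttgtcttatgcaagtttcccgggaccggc
SLC25A33: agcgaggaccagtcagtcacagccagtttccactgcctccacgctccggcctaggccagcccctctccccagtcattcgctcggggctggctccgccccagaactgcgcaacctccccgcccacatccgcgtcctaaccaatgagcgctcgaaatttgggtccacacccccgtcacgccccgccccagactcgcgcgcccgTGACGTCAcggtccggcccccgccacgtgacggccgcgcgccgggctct
SLC25A36: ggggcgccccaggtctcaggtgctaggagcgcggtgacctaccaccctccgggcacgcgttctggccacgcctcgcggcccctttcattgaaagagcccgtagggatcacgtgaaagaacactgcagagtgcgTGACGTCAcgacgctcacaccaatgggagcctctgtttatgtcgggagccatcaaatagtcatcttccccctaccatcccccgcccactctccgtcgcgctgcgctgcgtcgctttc
In these 3 stretches the element shares no base with the other motifs searched, of which the E-box CACGTG occurs in SLC25A33 and SLC25A36. Over the same windows, on both strands, the E-box was found in 22.5% of members and 8.77% of genes, and the ETS letters CCGGAAG in 27.5% and 12.2%. The 27305 genes were not limited to the 17717 that passed the count filter, so these shares compare unlike sets. The E-box was in 4 of the 16 windowed members that rose and 3 of the 15 that fell. The ETS letters were in 3 of the 16 and 5 of the 15. The letters TGATGCAAT, known from ATF4 and C/EBP elements, were in 0 of the 40 members and in 0.293% of genes.

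Among the ATP-Mg and phosphate carriers, SLC25A25, which swaps ATP-Mg for phosphate under the control of calcium (chromosome 9, 128068201 to 128109245, plus strand), read 32.7, 33.3 and 28.3 CPM with anticarin-beta, against 11.2, 11.5 and 10.6 CPM with vehicle. It was 2.83-fold higher, without overlap (log2 fold change 1.5 ± 0.09, adjusted p = 1.38e-08). Its paralog SLC25A23 fell by 0.52 on the log2 scale, and SLC25A24 (−0.17) did not pass. SLC25A3 (chromosome 12, 98593591 to 98606379, plus strand) had 427, 396 and 414 CPM with anticarin-beta, against 338, 327 and 292 CPM with vehicle, a log2 fold change of 0.37 ± 0.09 (adjusted p = 0.00194) that turned to −0.05 with library totals alone.

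Among the ADP/ATP carriers the scarce SLC25A4 fell and the abundant SLC25A5 and SLC25A6 were higher. SLC25A4 (chromosome 4, 185143241 to 185150382, plus strand) read 12.5, 11.4 and 11.0 CPM with anticarin-beta, against 21.9, 23.1 and 21.6 CPM with vehicle, and was lower in all treated libraries (log2 fold change −0.93 ± 0.12, adjusted p = 1.01e-05). SLC25A6 (chromosome X, 1386152 to 1392724, minus strand) read 894, 851 and 808 CPM with anticarin-beta, against 723, 710.2 and 693 CPM with vehicle (log2 fold change 0.26 ± 0.06, adjusted p = 0.00246). SLC25A5 (chromosome X, 119468400 to 119471319, plus strand) read 334, 341 and 331 CPM with anticarin-beta, against 286, 254 and 237 CPM with vehicle (log2 fold change 0.37 ± 0.12, adjusted p = 0.0144). The groups were apart in CPM for both, but in TPM SLC25A6 overlapped, at 1118 to 1253 with anticarin-beta and 1123 to 1199 with vehicle. Library totals alone turned SLC25A6 to −0.15, a call of lower (adjusted p = 0.0496), and SLC25A5 to −0.05 without a call. Upper-quartile scaling ended both increases (0.15 and 0.26), and SLC25A5 also missed the threshold on leaving out vehicle replicate 2 (0.33) or 3 (0.30). These genes encode closely related proteins, but how alike their transcripts are was not measured here. SLC25A6 lies in a region that both sex chromosomes carry, and how multiply mapping reads were treated was not given in the sources used here. The split of reads between the ADP/ATP carrier genes is therefore uncertain. Pseudogenes of SLC25A4, SLC25A5 and SLC25A6 had at most 12 counts in a library.

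In the remaining roles, 1 partner fell while the other rose or did not pass. SLC25A40, a glutathione carrier (chromosome 7, 87833568 to 87876357, minus strand), read 3.86, 3.88 and 4.27 CPM with anticarin-beta, against 13.4, 16.5 and 18.5 CPM with vehicle, and was 4.02-fold lower without overlap (log2 fold change −2.01 ± 0.15, adjusted p = 5.69e-08). SLC25A39, the other glutathione carrier, was at 112 to 122 CPM with anticarin-beta and 89.5 to 109 CPM with vehicle. Its log2 fold change of 0.24 passed (adjusted p = 0.0184), but the call was lost with upper-quartile scaling (0.13) and on leaving out anticarin-beta replicate 3 (0.21) or replicate 1 (0.22) or 3 (0.16) of the vehicle group, and the sign turned with library totals alone (−0.18). Of the iron importers, SLC25A28 fell by 0.91 on the log2 scale, to 11.1 to 13.0 CPM with anticarin-beta, against 15.2 to 26.0 CPM with vehicle. SLC25A37 was at 152 to 175 CPM with anticarin-beta and 88.3 to 164 CPM with vehicle and did not pass (0.40, adjusted p = 0.0718). It did pass without vehicle replicate 3 (0.65), with RLE scaling or DESeq2 (0.47 each) and with a replicate block (0.45).

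The 3 uncoupling protein relatives gave 1 rise and 2 falls (33.3% and 66.7%, against 34.9% and 38.0% of all genes). SLC25A30 (chromosome 13, 45393316 to 45418455, minus strand) read 8.81, 11.6 and 10.1 CPM with anticarin-beta, against 21.7, 20.5 and 22.0 CPM with vehicle (log2 fold change −1.08 ± 0.25, adjusted p = 0.0018). SLC25A14 fell by 0.68 and SLC25A27 rose by 0.83 on the log2 scale, the last of these losing its call with library totals alone (0.41). Of the carriers with no settled substrate, SLC25A45 (chromosome 11, 65375192 to 65383701, minus strand) read 1.93, 1.76 and 2.09 CPM with anticarin-beta, against 6.29, 8.08 and 5.61 CPM with vehicle, and was 3.44-fold lower (log2 fold change −1.78 ± 0.17, adjusted p = 8.39e-07). SLC25A46, which acts in the outer membrane in mitochondrial fission, fell by 0.66 on the log2 scale, and SLC25A43 (−0.02) did not pass. The sparse SLC25A53 was at 4.07 to 5.10 CPM with anticarin-beta, against 1.57 to 2.03 CPM with vehicle (log2 fold change 1.31). SLC25A20, the carnitine and acylcarnitine carrier of fatty acid oxidation, did not pass either (0.50, adjusted p = 0.0975), with overlapping values of 9.48 to 14.5 CPM with anticarin-beta and 6.74 to 11.6 CPM with vehicle. It passed on leaving out replicate 1 of the anticarin-beta group (0.66) or of the vehicle group (0.76).

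Ratios between carriers of like role, taken within a library, do not depend on how libraries are scaled. The TPM of SLC25A13 over that of SLC25A12 was 4.88 to 6.03 with anticarin-beta and 0.877 to 1 with vehicle. SLC25A39 over SLC25A40 was 41.1 to 43.6 with anticarin-beta and 6.97 to 10.5 with vehicle. SLC25A18 over SLC25A22 was 0.278 to 0.437 with anticarin-beta and 0.00777 to 0.0165 with vehicle, so SLC25A22 stayed the more abundant of the glutamate carriers. SLC25A25 over SLC25A23 was 2.24 to 2.48 with anticarin-beta and 0.541 to 0.643 with vehicle, a change in which of these paralogs was higher. SLC25A6 over SLC25A4 was 160 to 168 with anticarin-beta and 68.8 to 73.9 with vehicle, while SLC25A5 over SLC25A6 overlapped, at 0.539 to 0.592 with anticarin-beta and 0.494 to 0.570 with vehicle. These pairs were chosen with the values known, and the ratios are descriptions without a test.

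**Figure D4:**
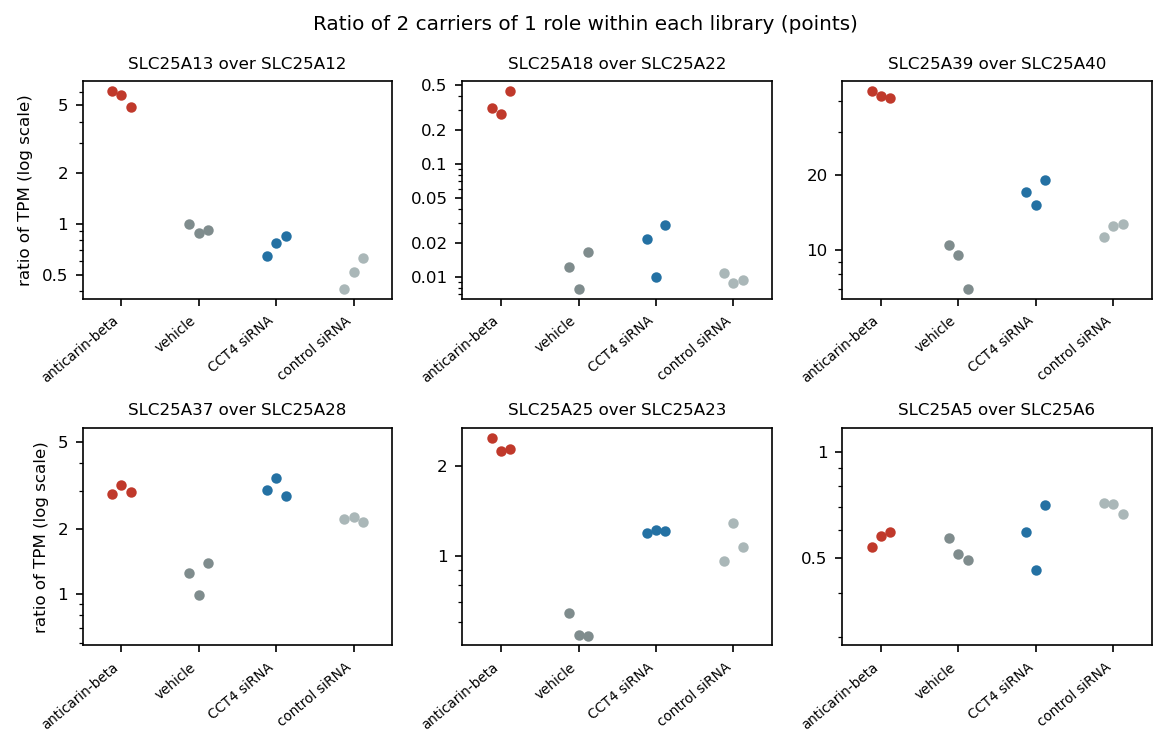
Ratio of the TPM of 2 carriers of like role within each library (log scale, 1 point per library) for anticarin-beta, vehicle, CCT4 siRNA and control siRNA. The anticarin-beta points lie apart from vehicle in 5 of the 6 panels, for example 4.88 to 6.03 against 0.877 to 1 for SLC25A13 over SLC25A12, and overlap for SLC25A5 over SLC25A6.

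Genes that work beside the carriers were read from 7 lists with 69 symbols, of which 67 were tested. With anticarin-beta 16 were higher and 40 lower, that is 23.9% and 59.7%, against 34.9% and 38.0% of all genes, the shares against which each list is read. The median of the 67 was −0.36 on the log2 scale, against −0.06 over all genes. Among family members under other names, 2 of 4 rose and 2 fell, with MTCH1 at 1.39, the uncoupling protein gene UCP2 at −2.88 and MTCH2 at −0.26. Other inner membrane transporters gave 6 of 18 higher, among them the calcium uniporter pore MCU (1.64), and 9 lower, among them ABCB10 (−1.79) and SFXN3 (−1.61). Of the porins of the outer membrane, VDAC3 fell (−3.24) and VDAC1 (−0.04) did not pass. VDAC2 was higher (0.43), a call that ended on leaving out replicate 1 (0.39) or 3 (0.31) of the anticarin-beta group or replicate 1 (0.40) or 3 (0.38) of the vehicle group, and at 0.01 with library totals alone.

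Enzymes of the malate-aspartate, glycerol phosphate and citrate shuttles were lower in 9 of 12 cases and higher in 2, with IDH1 at −3.31, IDH2 at −1.44, ACLY, which splits exported citrate, at −1.17, and the mitochondrial aspartate aminotransferase GOT2 at −0.67. Of 5 carnitine shuttle enzymes 3 fell, led by CPT2 (−3.41) and CRAT (−1.73). The call of the third, CPT1A (−0.16), ended on leaving out replicate 1 (−0.16) or 3 (−0.14) of the anticarin-beta group or replicate 1 (−0.12) of the vehicle group. Iron-sulfur and heme synthesis had 11 of 18 lower, among them PPOX (−3.08), NFS1 (−2.23), FECH (−1.76) and CPOX (−1.64), and 2 higher. Mitochondrial folate enzymes had 5 of 7 lower, such as SHMT2 (−1.20) and MTFMT (−1.28), and 2 higher, MTHFD2L (1.25) and MTHFD2 (0.57, and 0.15 without a call under library totals alone).

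In the libraries labelled CCT4 siRNA, 7 SLC25 members were higher and 1 lower than with control siRNA. Of all genes tested, 10.7% were called higher and 9.04% lower in this comparison, against 16.7% and 2.38% of the members. The members' median was 0.08 against 0.01 over all genes. SLC25A6 read 686, 618 and 599.6 CPM in the libraries labelled CCT4 siRNA, against 415, 406 and 418 CPM with control siRNA. The groups were clearly apart (log2 fold change 0.62 ± 0.06, adjusted p = 6.76e-05). SLC25A3 read 244, 252 and 258 CPM in the libraries labelled CCT4 siRNA, against 160.1, 155 and 194 CPM with control siRNA (log2 fold change 0.57 ± 0.09, adjusted p = 0.000977). SLC25A13 read 15.7, 16.4 and 17.6 CPM, against 10.1, 11.3 and 13.7 CPM with control siRNA (log2 fold change 0.50 ± 0.12, adjusted p = 0.0107). These 3 calls held under every scaling and left-out library.

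SLC25A11 and SLC25A4, which fell with the compound, were higher in the siRNA experiment. SLC25A11 read 43.6, 44.2 and 38.5 CPM in the libraries labelled CCT4 siRNA, against 31.9, 31.5 and 32.9 CPM with control siRNA (log2 fold change 0.39 ± 0.09, adjusted p = 0.0112, and no longer called with library totals alone at 0.26). SLC25A4 read 19.9, 21.8 and 19.9 CPM in the libraries labelled CCT4 siRNA, against 14.5, 18.6 and 14.3 CPM with control siRNA (log2 fold change 0.38 ± 0.11, adjusted p = 0.0328). Its groups were apart, but the call was lost on leaving out any single library with that label (0.40, 0.34 and 0.40) or control siRNA replicate 1 (0.32) or 3 (0.31). Library totals alone (0.25), no count filter (0.37) and a fit of the 2 groups alone (0.365) also ended it. SLC25A38 read 26.6, 29.5 and 25.4 CPM in the libraries labelled CCT4 siRNA, against 21.4, 20.2 and 24.2 CPM with control siRNA. Its call (log2 fold change 0.31 ± 0.10, adjusted p = 0.0417) was lost without any 1 of those labelled libraries (0.32, 0.25 and 0.36), without control siRNA replicate 1 (0.29) or 2 (0.25), and without any 1 anticarin-beta library (0.31 each). The call also ended with library totals alone (0.18), upper-quartile scaling (0.29), no count filter (0.30) or a replicate block (0.31). So it did with the 2 groups alone (0.30) and without mitochondrially encoded genes (0.30).

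SLC25A5 did not pass, at 282, 198 and 294 CPM in the libraries labelled CCT4 siRNA, against 206, 201 and 194 CPM with control siRNA (log2 fold change 0.36 ± 0.12, adjusted p = 0.0537). CCT4 siRNA replicate 2 was the low library, and without it the gene passed (0.52, adjusted p = 0.00244). With all siRNA libraries kept, SLC25A5 also passed with DESeq2, without a count filter and without vehicle replicate 1 (0.36 each). SLC25A18 was called on 27, 12 and 33 counts in the libraries labelled CCT4 siRNA, against 11, 9 and 12 with control siRNA (log2 fold change 1.21 ± 0.38, adjusted p = 0.0431). That call was lost without any 1 control siRNA library (1.25, 1.11 and 1.27), without CCT4 siRNA replicate 1 (1.10) or 3 (0.91), without vehicle replicate 3 (1.21) and without anticarin-beta replicate 1 (1.21). Limma-voom (1.06), library totals alone (1.08) and the 2 groups alone (1.19) also ended it. The single decrease, SLC25A45, read 9.35, 9.17 and 9.90 CPM in the libraries labelled CCT4 siRNA, against 12.4, 14.0 and 13.0 CPM with control siRNA (log2 fold change −0.47 ± 0.14, adjusted p = 0.0339). It was lost without any 1 library of either siRNA group (−0.43 to −0.51), without a count filter (−0.48) and with a replicate block (−0.47). SLC25A46 was not called (−0.22), at 66.1 to 73.5 CPM in the libraries labelled CCT4 siRNA, against 78.1 to 82.3 CPM with control siRNA. It was called lower with every other scaling, with DESeq2 (−0.23) and with limma-voom (−0.22), among other settings. SLC25A28 (−0.51), also not called, passed with DESeq2 and with library totals alone, among other settings. SLC25A30 did not pass, at 14.1, 31.2 and 33.3 CPM in the libraries labelled CCT4 siRNA, against 32.5, 34.0 and 35.8 CPM with control siRNA, with 1 low library in the first of these groups.

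Among the 67 genes of the lists, 8 were higher and 5 lower in the libraries labelled CCT4 siRNA (11.9% and 7.46%, against 10.7% and 9.04% of all genes), with a median of 0.12, against 0.01. MTCH1 (0.45) rose. CPT2 (−1.16), IDH1 (−0.77), PPOX (−0.50), SFXN3 (−0.35) and ALAS1 (−1.12), which makes the first intermediate of heme, fell. ALAS1 averaged 41.7 CPM in the libraries labelled CCT4 siRNA and 90.3 CPM with control siRNA, while vehicle stood at 38.9 CPM. The call of SFXN3 ended on leaving out replicate 2 or 3 of either siRNA group (−0.34 and −0.32 in each).

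Set beside each other, the compound and siRNA comparisons, which share no library, called 4 members higher in both (SLC25A3, SLC25A6, SLC25A13 and SLC25A18) and 1 lower in both (SLC25A45). SLC25A4, SLC25A11 and SLC25A38 were lower with the compound and higher in the libraries labelled CCT4 siRNA. These are 9.52%, 2.38% and 7.14% of the members tested, against 6.76%, 5.90% and 2.02% of all genes. The 4 shared increases are 4 of the 17 with the compound and 4 of the 7 with the siRNA. Over all genes, 1197 increases were shared, of 6186 with the compound and 1892 with the siRNA. Tested directly, the compound response minus the siRNA response was higher for 12 members and lower for 17, against 27.5% and 32.4% of all genes. For SLC25A11 the difference was −2.07 ± 0.13, for SLC25A4 −1.31 ± 0.16 and for SLC25A38 −1.16 ± 0.14 on the log2 scale (adjusted p = 5.12e-08, 1.58e-05 and 1.31e-05). SLC25A6 differed by −0.35 ± 0.09 (adjusted p = 0.00474), its increase being smaller with the compound. For SLC25A3 (−0.20) and SLC25A5 (0.01) the difference did not pass, though for SLC25A3 it did without control siRNA replicate 3 (−0.31).

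The control groups also differed from each other in the family. Control siRNA against vehicle, groups that differ at once in transfection, agent, time and experiment, gave 7 members higher and 15 lower, against 24.8% and 23.6% of all genes. This comparison shares libraries with both of the others. SLC25A13 (−1.31), SLC25A3 (−0.91) and SLC25A6 (−0.78) were lower with control siRNA, and SLC25A37 (1.31), SLC25A25 (1.05) and SLC25A45 (0.98) higher. As a result the libraries labelled CCT4 siRNA, though higher in SLC25A13 than their own control at 15.7 to 17.6 CPM, lay below vehicle at 26.5 to 32.2 CPM.

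Exon bases are shared with another gene by 21 of the 48 members, 6 on the same strand and 19 on the opposite one. SLC25A10, SLC25A11, SLC25A12, SLC25A18, SLC25A25, SLC25A30, SLC25A35, SLC25A40 and SLC25A45 are among them, so reads of a neighbour may be counted with theirs. Among the 22 tested members without such an overlap, a split made after seeing the data, 10 rose and 8 fell with anticarin-beta, against 34.9% and 38.0% of all genes. In the libraries labelled CCT4 siRNA 4 of the 22 were higher and 0 lower, against 10.7% and 9.04% of all genes.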

How the data were processed

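RNA-seq read counts per gene were given for 12 libraries, 3 for each of 4 groups. The table deposited by the authors holds raw counts, 1 column per library and without normalization. Per the labels' protocols the TruSeq kit was a stranded one. The tools were STAR 2.5.2a and, from the Subread package, featureCounts 1.5.0, on hg38, per the submitters' processing notes. Annotation release, use of strand and treatment of multiply mapping reads were not given in the sources used here. Members that overlap or resemble other genes are therefore uncertain. Positions, exon lengths and overlaps came from GENCODE release 29 on GRCh38, which held 98.5% of the gene identifiers.

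Members were tested within the whole table by the quasi-likelihood test of edgeR 4.0.16 (R 4.3.3), two-sided, with TMM scaling, filterByExpr and 1 mean per group over all 12 libraries (8 residual degrees of freedom). Adjusted p-values are Benjamini-Hochberg values over the 17717 genes tested, called under 0.05, and fold changes carry a prior count of 0.125. TPM was computed from the counts over the union of all annotated exons of each gene. Within each group every pair of libraries differed beyond counting noise (chi-square per degree of freedom 8.48 to 26.5), so each counted as 1 sample. Floors cover counting error only. The test was also tried on simulated counts.

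Per-library values were given for members called by at least 2-fold with a mean of 5 CPM or more, the 3 with the highest TPM and those called in opposite directions, and others called with the siRNA were added after their values were seen. Of each list, the genes with the smallest p were named. The members, lists and rules were chosen with earlier results of these data known. The results were recomputed with DESeq2 1.42.0, limma-voom (limma 3.58.1), scaling by RLE, the upper quartile or library totals, other count filters, 2 groups alone, a replicate block, a threshold of 0.01, omission of mitochondrially encoded genes and of each library. Counts without overlapping members, and ratios between members, were added after seeing the data. A few genes that these rules would name are not reported here.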

Additional observations from a re-analysis of the deposited data

How the results depend on the processing

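The 3 libraries per group, the scaling and low counts limit these results. With anticarin-beta, 18 members were lower under all but library-total scaling, which gave 21 lower and 11 higher, and leaving out 1 library gave 16 to 18 higher and 18 lower. Library totals alone reversed SLC25A6 (−0.15, called lower), SLC25A5 (−0.045, not called) and SLC25A3 (−0.049, not called). This scaling gave 3 members higher and 4 lower in the siRNA comparison, where 902 of all genes were higher and 2800 lower. For the difference of responses it gave 7 members higher, beside 3724 of all genes. Among list genes it gave 10 higher with the compound, and 1 higher and 8 lower with the siRNA. The cause was not tested. The siRNA calls were few: 4 to 8 higher and 0 to 3 lower without 1 library, 2 lower with RLE or upper-quartile scaling, with limma-voom, with at least 1 CPM in 3 libraries or without mitochondrially encoded genes, 3 lower with DESeq2 or with the 2 groups alone, and 2 higher and 0 lower at 0.01 (edgeR; at an unadjusted p under 0.05, 10 were higher and 3 lower). List genes higher with the siRNA numbered 3 without a count filter, 3 at 0.01 and 3 to 8 without 1 library, and lower 4 to 6. With the compound, list genes were 13 to 16 higher and 36 to 40 lower without 1 library. Without 1 library, the difference of responses gave 9 to 12 higher and 17 to 18 lower. Control siRNA against vehicle then gave 6 to 7 higher and 12 to 16 lower, and 9 lower at 0.01 with all libraries. For the difference, library totals alone added SLC25A3, SLC25A24, SLC25A28, SLC25A30 and SLC25A39 to the decreases (−0.98 to −0.29). RLE scaling, DESeq2 and limma-voom added SLC25A27 to its increases (0.91 to 0.92). Between the control groups, library totals alone (0.49), DESeq2 (0.43) and limma-voom (0.47), among other settings, called SLC25A28 higher. CCT4 (0.15 to 0.25 without 1 library) was not called under any alternative.

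Replicate numbers are shared between groups, but same-numbered libraries did not deviate together (correlations −0.0308 to 0.0264), so they were not treated as pairs. With a replicate block, 17 members were higher and 18 lower with the compound, 6 and 0 in the siRNA comparison (10 and 4 at an unadjusted p under 0.05), and 4 list genes were higher with the siRNA.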
